A study of Mus musculus with 2 samples.

Results

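The chromosome ends described here are the outermost assembled stretches of the 19 mouse autosomes, 1 Mb at each end, in MNase-seq maps of called nucleosomes from embryonic stem (ES) cells. A called nucleosome belonged to the proximal end when its centre, the midpoint of its start and end, lay from 3000000 to 4000000 on build mm9, and to the distal end when it lay within 1000000 bp of the highest end position listed for that autosome in either library. The rule uses position alone. It took in 10697 proximal and 10096 distal calls of the 1300009 in the ethanol library, and 12036 proximal and 11243 distal calls of the 1424844 in the tamoxifen library. The ends thus held 44072 of 2724853 calls, or 1.62% of both lists. The rest of the autosomes, 1268901 and 1389903 calls, served as the reference.

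The cells were Brg1fl/fl ES cells that also carry Actin-CreER, a tamoxifen-dependent Cre recombinase, so both libraries come from cells with floxed Brg1 alleles. They were exposed for 24 hours to 0.8 µM tamoxifen or to the same volume of ethanol and then kept for 48 hours in medium with neither. Chromatin was digested with micrococcal nuclease (MNase), which cuts the linker DNA between nucleosomes, and the mononucleosome band of the digest with 12 U of enzyme was sequenced. Each group has 1 library, labelled replicate 1, so there is no test and no p-value, and how far cultures or digests vary is unknown. Loss of Brg1 cannot be checked from lists of positions.

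Mouse autosomes have their centromere at one end. The blocks of tandem satellite repeats beside it are packed as constitutive heterochromatin and are largely missing from genome assemblies, so that the assembled sequence of an autosome starts at the inner border of this block. At the other end the assembled sequence stops short of the telomere, whose repeats are bound by the shelterin proteins. Brg1 drives esBAF, a chromatin remodeler of the SWI/SNF type in ES cells that slides and evicts nucleosomes with the energy of ATP, and the series asks whether this complex sets the spacing of nucleosomes. Calls began near the same position on every autosome, the lowest one starting 61 to 9931 bp after position 3000000. Intervals below are at 95% and cover counting error only. They treat calls as independent counts, which neighbouring calls are not.

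Most distal ends had fewer calls per Mb than the average of the rest of their own autosome, while the proximal ends followed no common direction. That average lies above a typical window, since 100 kb windows of the rest had a mean of 53.4 ethanol calls and a median of 41. A distal end carried a median of 0.73 times the calls per Mb of the rest of its own autosome with ethanol and 0.84 times with tamoxifen. In each library 13 of the 19 distal ends lay below the rest and 6 lay above it. For all 13 with ethanol, and 12 with tamoxifen, the interval of the ratio lay wholly below 1. The proximal ends had a median ratio of 0.95 with ethanol, 12 of 19 lying below the rest, and of 1.04 with tamoxifen, 9 of 19 lying below it. The switch from 12 to 9 rested on chromosomes 5 and 17, with ratios of 0.99 and 1.05, and 1.00 and 1.05, and on chromosome 13, with 0.89 (interval 0.81 to 0.98) and 1.04 (0.95 to 1.13).

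**Figure D1:**
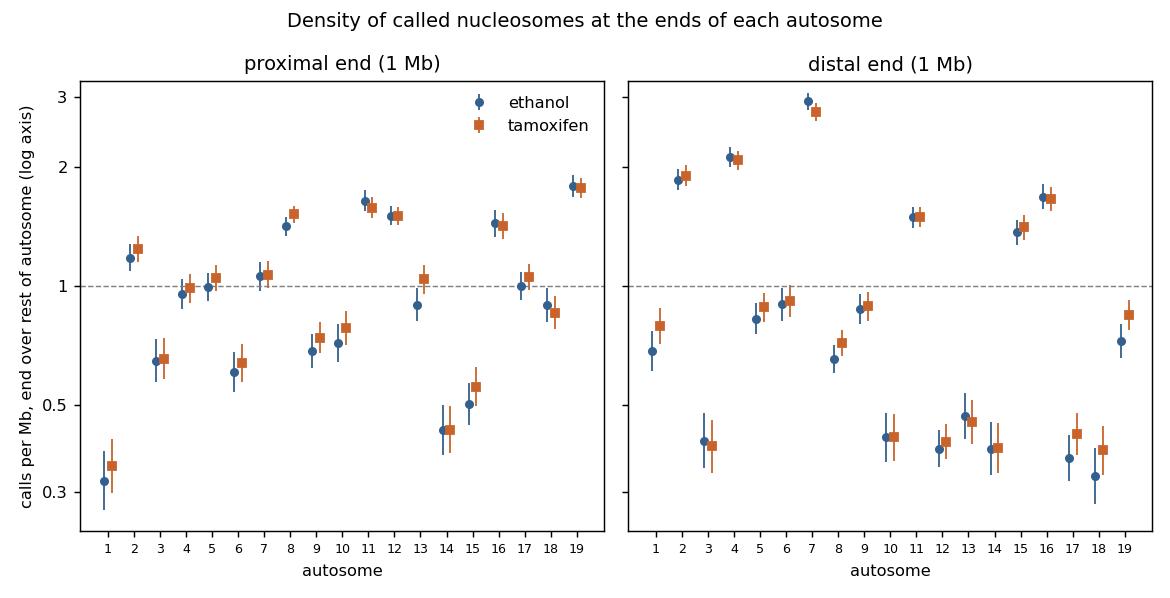
Calls per Mb at the proximal (left) and distal (right) 1 Mb of each autosome, divided by calls per Mb in the rest of that autosome, on a log axis. Points are the ethanol (circles) and tamoxifen (squares) libraries and bars are 95% counting intervals; the distal values run from 0.33 on chromosome 18 to 2.92 on chromosome 7 with ethanol.

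Single ends differed far more from one another than the libraries did. The distal end of chromosome 7 held 1526 calls with ethanol and 1573 with tamoxifen, 2.92 and 2.75 times the density of the rest of that chromosome. No other 1 Mb window among the 149 laid along chromosome 7 from that end held as many, in either library. Chromosome 4 followed with 1129 and 1196 distal calls, 2.11 and 2.07 times the rest. Chromosome 2 had 969 and 1085, 1.86 and 1.90 times the rest. The poorest distal ends were those of chromosome 18 with 144 and 186 calls, chromosome 17 with 212 and 263, and chromosome 14 with 163 and 182. Their densities were 0.33 and 0.38, 0.37 and 0.42, and 0.39 and 0.39 times the rest. These 3 richest ends were also the richest with tamoxifen. In that library chromosomes 3, 10 and 12 stood below chromosome 17, at 0.39, 0.41 and 0.40. Their ethanol ratios were 0.41, 0.41 and 0.39.

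Among proximal ends, chromosome 19 stood highest relative to its own rest, with 997 calls with ethanol and 1080 with tamoxifen, 1.79 and 1.77 times the rest. Chromosome 11 had 1091 and 1132 calls, 1.64 and 1.58 times the rest, and chromosome 12 had 1260 and 1384, 1.5 times the rest in each. In absolute number the proximal end of chromosome 8 led, with 1291 and 1494 calls. Chromosome 8 is rich in calls on average, however, and the ratio of this end was 1.41 and 1.52. The lowest proximal ends were those of chromosome 1 with 130 and 156 calls (ratios 0.32 and 0.35), chromosome 14 with 182 and 203 (0.43 in each) and chromosome 15 with 254 and 305 (0.50 and 0.55). Set against all 1 Mb windows of its own autosome, the median proximal end had more calls than 51.4% of the other windows with ethanol and 54.7% with tamoxifen. The median distal end had more than 44.0% and 42.5%. By rank, then, a typical end was an ordinary window of its chromosome, and 1 proximal and 6 distal ends fell below the 25th percentile in each library. At or above the 75th percentile stood 3 proximal and 5 distal ends with ethanol, and 4 of each with tamoxifen.

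The density of one end of an autosome was only loosely related to that of the other. With ethanol, both ends were sparser than the rest on 10 autosomes, both were denser on 4, and the ends differed in direction on 5. Over the 19 autosomes the proximal and distal ratios had a Pearson r of 0.20 and a Spearman rho of 0.22 with ethanol, and 0.21 and 0.26 with tamoxifen. Between the libraries the same ratios had an r of 0.993 for the proximal and 0.997 for the distal ends. These coefficients are descriptions of 19 autosomes in the same 2 libraries. Pooling the autosomes hides this variety. All proximal ends together had 563.0 calls per Mb (interval 552.4 to 573.8) with ethanol against 533.8 in the rest, 1.05 times as many, and 633.5 (622.2 to 644.9) against 584.7 with tamoxifen, 1.08 times as many. That small excess rested on a few chromosomes. Without chromosomes 8 and 12 the ratios were 0.97 and 0.99. Leaving out 1 autosome at a time, the ethanol ratio was 1.01 without chromosome 19, 11 or 12, with intervals that took in 1, and 1.02 without chromosome 8 (0.999 to 1.04). The pooled distal ratio was 0.996 with ethanol and 1.01 with tamoxifen, and without chromosome 7 alone it was 0.89 and 0.92.

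For orientation, the outermost protein-coding genes of these ends can be given by their order in another assembly, GRCm38.p6, which need not match mm9, so no value is tied to a gene. In RefSeq's table of that assembly chromosome 7 ends with Tpcn2, a cation channel of lysosomes, Smim38, Mrgprf and Mrgprd, a receptor of sensory neurons. Chromosome 4 ends with Noc2l, Samd11 and a vomeronasal receptor gene, Vmn2r129. Near the tips of the call-poor distal ends lie Adcyap1, a neuropeptide gene, on chromosome 17, Nalcn, a sodium leak channel of neurons, and Fgf14 on chromosome 14, and Cd226, a receptor of lymphocytes, on chromosome 18. On the proximal side, chromosome 19 opens with Ighmbp2 and continues with Cpt1a, the carnitine palmitoyltransferase of fatty acid oxidation, chromosome 12 with Rab10, a GTPase of vesicle traffic, and chromosome 1 with Xkr4, Rp1 and Sox17, a transcription factor of endoderm. No sequence of the ends is printed, since a genome of build mm9 was not used here.

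The distal end formed a rim that was sparse beside a dense belt further inward. Against the rest of the autosomes the pooled rim was not sparse, its ratio being 0.996 for the ethanol library and 1.01 for the tamoxifen library. Counted inward from the distal end in steps of 1 Mb and pooled over autosomes, the outermost Mb had 531.4 calls per Mb with ethanol, the next 701.5, and the third 900.6, which is 1.69 times the rest of the autosomes. With tamoxifen the same steps held 591.7, 764.9 and 945.5 calls per Mb, the third being 1.62 times the rest. From there to 10 Mb the pooled density stayed between 1.34 and 1.71 times the rest with ethanol and between 1.31 and 1.66 times with tamoxifen. In the belt from 2 to 10 Mb, 17 of 19 autosomes lay above their own rest in each library, with median ratios of 1.53 and 1.497. The belt is itself part of the reference, so the reference is raised by it.

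**Figure D2:**
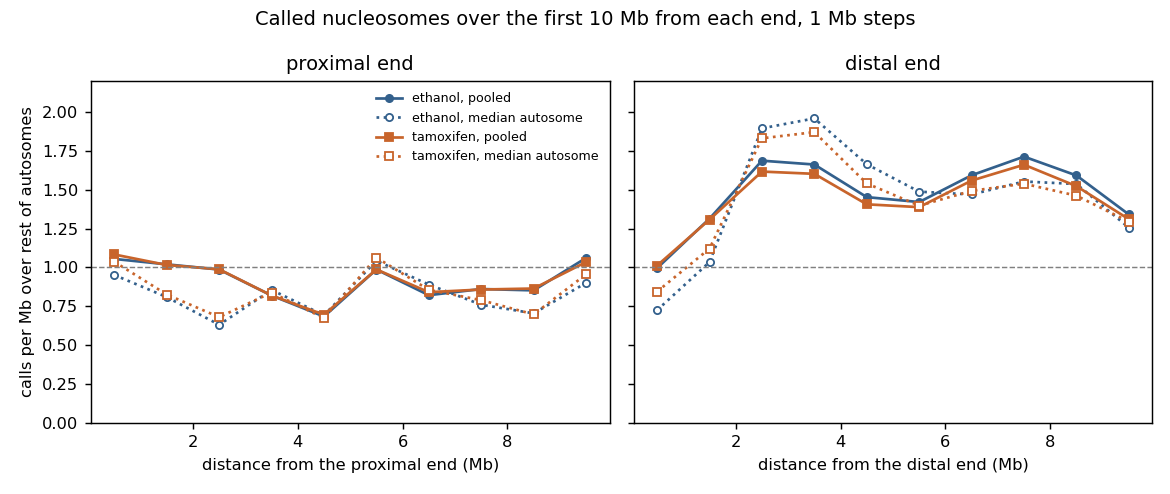
Calls per Mb in successive 1 Mb steps inward from the proximal (left) and distal (right) end, over the rest of the autosomes, for all autosomes pooled (solid) and as the median of the ratios of the 19 autosomes (dotted). The distal curve starts at 0.996 pooled with ethanol and reaches 1.69 in the third Mb, while the proximal curve stays at or below 1.08.

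On single chromosomes the step from rim to belt was large. On chromosome 10 the outermost distal Mb had 190 calls with ethanol and the third Mb 925, and with tamoxifen 210 and 974. Chromosome 12 went from 324 to 1378 and from 371 to 1473, and chromosome 8 from 597 to 1737 and from 705 to 1844. The outermost Mb had fewer calls than the third on 16 of 19 autosomes in both libraries, the exceptions being chromosomes 7, 17 and 18. It was the poorest of the 5 outermost steps on 12 of 19. On the proximal side the outermost Mb had fewer calls than the third on 10 of 19 autosomes and was the poorest of 5 on 2. These steps beyond the outermost Mb were added after the values of the ends had been seen.

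Within the distal end the pooled density was lowest at the tip and highest in the innermost step, with falls in between. With ethanol the step from 100 to 200 kb held the same number of calls as the tip. The outermost 100 kb, pooled over autosomes, held 858 calls with ethanol (451.6 per Mb, interval 421.9 to 482.8) and 939 with tamoxifen (494.2 per Mb, 463.1 to 526.9). The step from 900 to 1000 kb held 1201 (632.1 per Mb) and 1328 (698.9 per Mb). The outermost and innermost intervals did not overlap in either library. This was not a general gradient, since the outermost step lay above the mean of the other 9 on 9 of 19 distal ends with ethanol and on 8 with tamoxifen. No 100 kb step of any end was without calls, the lowest having 3 with ethanol and 6 with tamoxifen. Stretches of 10 kb with no call in either library made up 3.58% of the distal ends (Wilson interval 2.83 to 4.51%), against 5.74% of the proximal ends (4.78 to 6.87%) and 5.99% of the rest. The longest stretch without a call at an end spanned 92.2 kb in the proximal end of chromosome 14, from 3339841 to 3432046, and the longest at a distal end 56.6 kb on chromosome 9, from 123780026 to 123836641. A stretch with no call need not lack nucleosomes, since only those past the authors' cutoffs are listed. The part of assembly gaps and repeats was not tested.

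**Figure D3:**
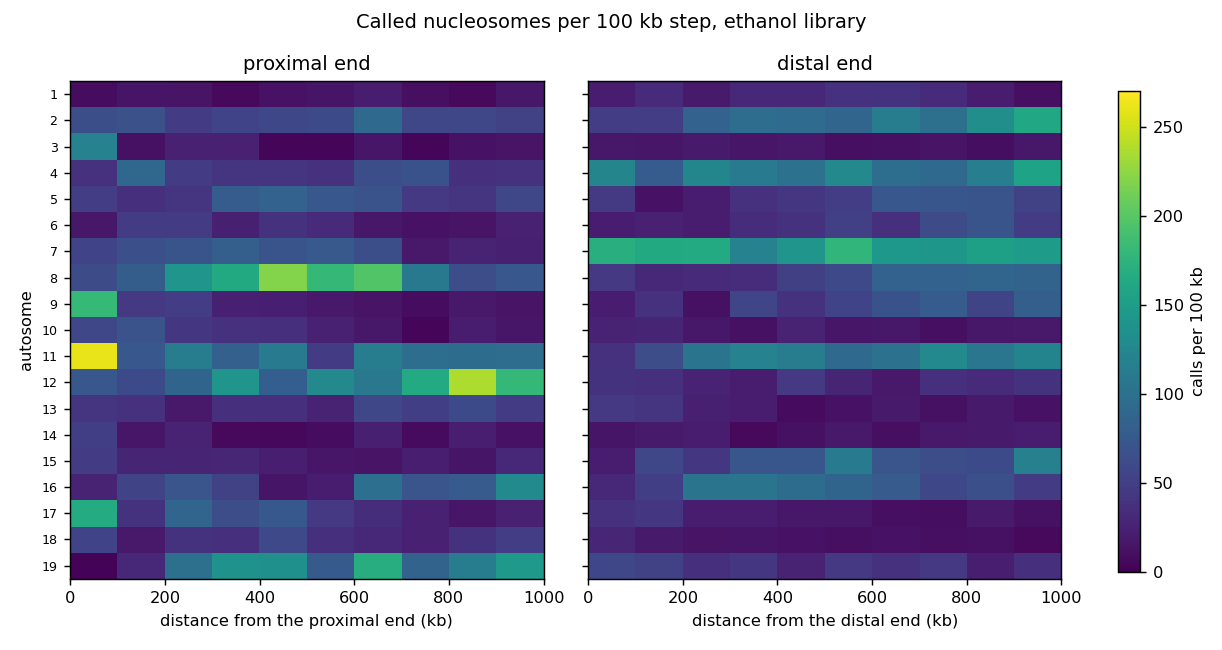
Number of calls in each 100 kb step of the proximal (left) and distal (right) end of each autosome in the ethanol library, with the distance from the end in kb on the x axis. The outermost proximal step is brightest on chromosome 11, with 261 calls, while at the distal side chromosome 7 is bright over all 10 steps.

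At the proximal side the outermost 100 kb differed from the 900 kb behind it. Pooled over autosomes it held 1378 calls with ethanol (725.3 per Mb, interval 687.5 to 764.6) and 1532 with tamoxifen (806.3 per Mb, 766.4 to 847.7), 1.36 and 1.38 times the rest. The next step had 888 and 1048 calls, 0.88 and 0.94 times the rest. The excess was carried by 4 chromosomes. Chromosome 11 had 261 ethanol and 262 tamoxifen calls in this step, chromosome 9 had 181 and 198, chromosome 17 had 166 and 169, and chromosome 3 had 120 and 131. The other 15 autosomes had 3 to 73 calls with ethanol and 6 to 89 with tamoxifen. Without those 4, picked as the autosomes with the most calls in this step, it held 433.3 and 514.7 calls per Mb. The rest of the same 15 autosomes had 534.1 and 585.1. Behind this block, chromosomes 3, 9 and 17 had means of 13.2, 23.8 and 45.8 ethanol calls per 100 kb over the other 9 steps. The median autosomal window of this size had 41. On chromosome 9 the steps from 100 and 200 kb held 45 and 49, so the low mean came from further inward. By autosome, the outermost step lay above the mean of the other 9 on 10 of 19 proximal ends and below it on 9, in each library. Among those below was chromosome 19, with 3 ethanol and 10 tamoxifen calls in the outermost step and a mean of 110.4 ethanol calls in the other 9. Chromosome 8, with 63 ethanol calls and a mean of 136.4, was another.

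These outermost proximal blocks also held many of the nucleosomes with the highest scores. The authors' score, whose definition is not given in the sources used here, is used only within a list, and it stops at 3250. Of the autosomal calls at this maximum, 242 of 645 with ethanol (37.5%, Wilson interval 33.9 to 41.3%) and 253 of 689 with tamoxifen (36.7%, 33.2 to 40.4%) lay in the proximal ends. The proximal ends held 0.829% and 0.852% of all autosomal calls. Nearly all came from 3 chromosomes, 236 with ethanol and 244 with tamoxifen from chromosomes 9, 11 and 17. The distal ends had 12 calls at the maximum in each library.

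On chromosome 11 there were 160 such calls with ethanol, between 3001721 and 3099731, among 256 calls in that span, and 177 with tamoxifen, between 3000431 and 3099741, among 260. On chromosome 9 there were 64 with ethanol, from 3000401 to 3038011, and 54 with tamoxifen, from 3001721 to 3038011, and no call of a lower score lay in between in either list. On chromosome 17 the 12 ethanol and 13 tamoxifen calls at the maximum both ran from 3077631 to 3082841. Past the outermost 100 kb, none of these 3 chromosomes had a proximal call at the maximum. The median score in the outermost step was 3250 on chromosome 11 in both lists, 263.5 and 299.4 on chromosome 17, 135.7 and 160.3 on chromosome 9, and 150.3 and 196.5 on chromosome 3. It was also high on chromosome 4, at 695.1 and 626.1, from 39 and 47 calls. Over all autosomes the median score of this step was 142.9 with ethanol and 143.0 with tamoxifen, and that of each list was 86.0. Whether reads from repeats absent from the assembly were placed here was not tested.

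Positions in the outermost proximal step were more often shared between the libraries than those behind it, mostly on the chromosomes named above. A call was counted as shared when a call of the other library had its centre within 20 bp. In the outermost 100 kb of the proximal ends 59.9% of ethanol calls were shared (Wilson interval 57.3 to 62.5%), and 53.9% of tamoxifen calls (51.4 to 56.4%). In the 900 kb behind it the shares were 46.4% (45.4 to 47.4%) and 41.2% (40.3 to 42.1%), and in the rest of the autosomes 44.4% and 40.5%. Moving the calls by 1000 to 10000 bp before matching left 7.97% and 7.03% on average in the outermost step, 4.71% and 4.28% behind it, and 4.39% and 4.01% in the rest. The excess was not common to all autosomes. On chromosomes 3, 4, 9, 11 and 17, grouped after their scores had been seen, 69.1% of ethanol and 65.7% of tamoxifen calls of the outermost step were shared, and on the other 14 autosomes 48.4% (44.5 to 52.4%) and 40.8% (37.3 to 44.4%). After displacement the average shares also differed, at 11.7% and 10.8% on the former and 3.31% and 2.80% on the other 14. Chromosome 11 weighed most: without it the step as a whole had 53.4% (50.4 to 56.3%) and 46.9% (44.2 to 49.7%). Chromosomes 3 and 9, at 56.7% and 54.7% with ethanol, lay below the 58.7% of chromosome 8, which rests on 63 calls. With tamoxifen the order was reversed, chromosome 8 at 44.0% lying below chromosome 9 and below chromosome 3 at 51.9%. In each library the intervals of chromosomes 3, 8 and 9 overlapped. Neither chromosome 3 nor chromosome 8 had a call at the maximum in this step. Of the calls at the maximum on chromosome 11, 91.9% of those with ethanol and 91.5% of those with tamoxifen were shared.

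At the distal ends sharing differed little from the rest. The share was 43.3% (42.3 to 44.3%) of ethanol calls and 38.9% (37.99 to 39.8%) of tamoxifen calls, and after displacement 3.73 to 4.48% and 3.42 to 4.35%. The ethanol share was 1.09 percentage points below the rest (difference -1.09, interval -2.06 to -0.12), but the difference was -0.20 (-1.21 to 0.82) without chromosomes 8 and 12 and -0.52 (-1.49 to 0.45) when centres within 40 bp counted as shared. By autosome it ran from 33.7% on chromosome 10 to 48.8% on chromosome 19 with ethanol. It exceeded the rest of the same autosome on 7 of 19 distal ends with ethanol and 6 with tamoxifen, but on 14 and 12 of 19 proximal ends. The median score at the distal ends was 86.0 in both libraries, as in the rest. By autosome the ethanol median was lowest at 70.9 on chromosome 3 and 74.4 on chromosomes 10 and 14, all poor in distal calls, and highest at 92.0 on chromosome 7. With tamoxifen the same ends stood at 80.1, 80.1, 74.35 and 92.0. In the rest of the autosomes sharing and score were not matched for density, so how far these values follow density was not tested.

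**Figure D4:**
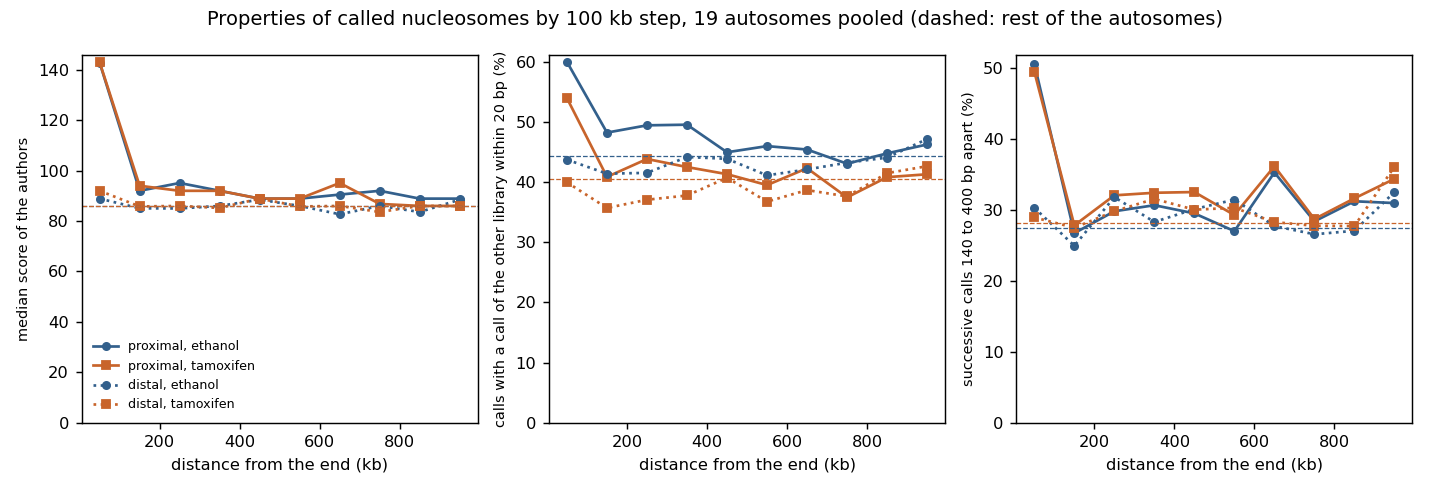
Median score, share of calls with a call of the other library within 20 bp, and share of successive calls 140 to 400 bp apart, by 100 kb step from the proximal (solid) and distal (dotted) end, for ethanol (circles) and tamoxifen (squares), with dashed lines for the rest of the autosomes. The outermost proximal step, pooled over autosomes, stands apart in all 3 panels, for example at 59.9% shared with ethanol against 48.2% in the next step.

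The calls of the ends were of nearly the same width as elsewhere. Mean widths with ethanol were 111.3 bp (SD 29.9 over calls) at the proximal ends, 111.9 bp (SD 29.7) at the distal ends and 112.3 bp (SD 29.9) in the rest. With tamoxifen they were 111.0, 112.0 and 112.3 bp. Calls of 80 or 90 bp, the narrowest listed, made up 44.6% of the outermost proximal 100 kb with ethanol (42.0 to 47.3%) and 43.6% with tamoxifen, against 34.8% and 34.6% of the rest. On the 14 autosomes other than 3, 4, 9, 11 and 17 the step had 37.0% (33.3 to 40.9%) and 36.1% (32.7 to 39.7%). Calls of 180 bp or more made up 4.61% of proximal and 4.35% of distal calls with ethanol, against 4.71% of the rest.

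Spacing, the subject of the series, was described by neighbours, by pairs and by arrays. Among successive calls at the proximal ends, 32.3% were 140 to 400 bp apart with ethanol (31.4 to 33.2%) and 33.6% with tamoxifen (32.8 to 34.5%). At the distal ends the shares were 28.7% (27.8 to 29.6%) and 29.5% (28.7 to 30.4%), and in the rest 27.4% and 28.2%. The outermost proximal 100 kb reached 50.6% and 49.4%, and the 900 kb behind it 29.7% and 31.4%. Chromosomes 3, 4, 9, 11 and 17 carried this too, with 73.2% and 72.9% in the outermost step. The other 14 autosomes had 21.6% (18.5 to 25.1%) and 22.9% (20.0 to 26.2%) there, below the rest, and none of them exceeded 28.3% with ethanol or 34.1% with tamoxifen. Density moved with this share, the median distance between successive calls being 385 bp with ethanol in the outermost proximal step and 820 bp in the rest. The tamoxifen share was higher than the ethanol share by 1.32 percentage points at the proximal ends (interval 0.091 to 2.54), by 0.81 at the distal ends (-0.41 to 2.03) and by 0.77 in the rest (0.66 to 0.87). The excess with tamoxifen was thus not resolved from that in the rest at either end. With the tamoxifen list thinned to the number of ethanol calls, the difference was 0.32 points at the proximal ends (-0.92 to 1.57) and turned to -1.20 at the distal ends (-2.44 to 0.032).

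The periodicity contrast sets the number of pairs of calls 350 to 410 bp apart, near 2 nucleosome repeats, over the number 260 to 320 bp apart. At the proximal ends it was 1.38 with ethanol (1.26 to 1.52, from 993 and 717 pairs) and 1.56 with tamoxifen (1.43 to 1.71, from 1203 and 769 pairs). At the distal ends it was 1.54 (1.38 to 1.72) and 1.67 (1.51 to 1.86), and in the rest 1.40 and 1.55. Tamoxifen over ethanol gave a ratio of 1.13 at the proximal ends (0.99 to 1.29), 1.09 at the distal ends (0.93 to 1.26) and 1.11 in the rest (1.09 to 1.12). The rest's value lay inside the intervals of both ends, and each of these intervals also held 1.

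Arrays, meaning 4 or more calls in a row with 150 to 230 bp from each to the next, were more frequent at the proximal ends when all autosomes were pooled. There were 82 with ethanol and 94 with tamoxifen, or 7.67 (6.10 to 9.52) and 7.81 (6.31 to 9.56) per 1000 calls, against 3.85 and 4.07 in the rest. Of these, 38 and 37 lay in the outermost 100 kb, 27.6 and 24.2 per 1000 calls there. Of those, 37 and 35 were on chromosomes 3, 4, 9, 11 and 17, and the other 14 autosomes had 1 and 2. Behind it the rates were 4.72 and 5.43 per 1000 calls. The distal ends had 51 and 55 arrays, 5.05 (3.76 to 6.64) and 4.89 (3.69 to 6.37) per 1000 calls. Mean spacing within arrays was 190.0 bp at the proximal ends in both libraries, 191.0 and 192.0 bp at the distal ends and 192.3 and 191.9 bp in the rest.

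The longest array at any end was a tamoxifen array of 9 calls on chromosome 11, with outermost centres at 3034686 and 3036251 and a mean spacing of 195.6 bp, where the ethanol library had 7 calls. With ethanol the longest had 8 calls and lay on chromosome 3 (centres 3006691 to 3007961, mean spacing 181.4 bp), chromosome 8 (3597421 to 3598761, 191.4 bp) and chromosome 17 (3012031 to 3013391, 194.3 bp). The tamoxifen library had 8, 7 and 6 calls in these spans. At the distal ends an array on chromosome 4 was seen in both lists, 7 ethanol calls from 154757586 to 154758706 and 8 tamoxifen calls from 154757626 to 154758896. The spans named were picked as the longest.

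The number of calls with tamoxifen relative to ethanol was, after scaling to the totals of the lists, close to that of the rest at both ends. Only the proximal interval left out the value of the rest, and narrowly. At the proximal ends the log2 ratio of tamoxifen over ethanol was 0.038 (exact interval 0.00017 to 0.076), at the distal ends 0.023 (-0.016 to 0.062), and in the rest -0.00088 (-0.0044 to 0.0026). The ratio was above that of the rest of the same autosome at 14 of 19 proximal and 13 of 19 distal ends. Single ends reached beyond their counting interval at 1 proximal and 1 distal end. The proximal end of chromosome 13 had 415 ethanol and 535 tamoxifen calls, a log2 ratio of 0.23 (0.046 to 0.42), and the distal end of chromosome 19 had 404 and 516, a log2 ratio of 0.22 (0.030 to 0.41). These 2 were picked from 38 intervals that do not allow for the number of ends, and a higher ratio, 0.24 at distal chromosome 18 from 144 and 186 calls, had an interval that took in 0 (-0.085 to 0.56). No end lay wholly below 0, and the lowest was the distal end of chromosome 7 at -0.089 (-0.19 to 0.014).

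**Figure D5:**
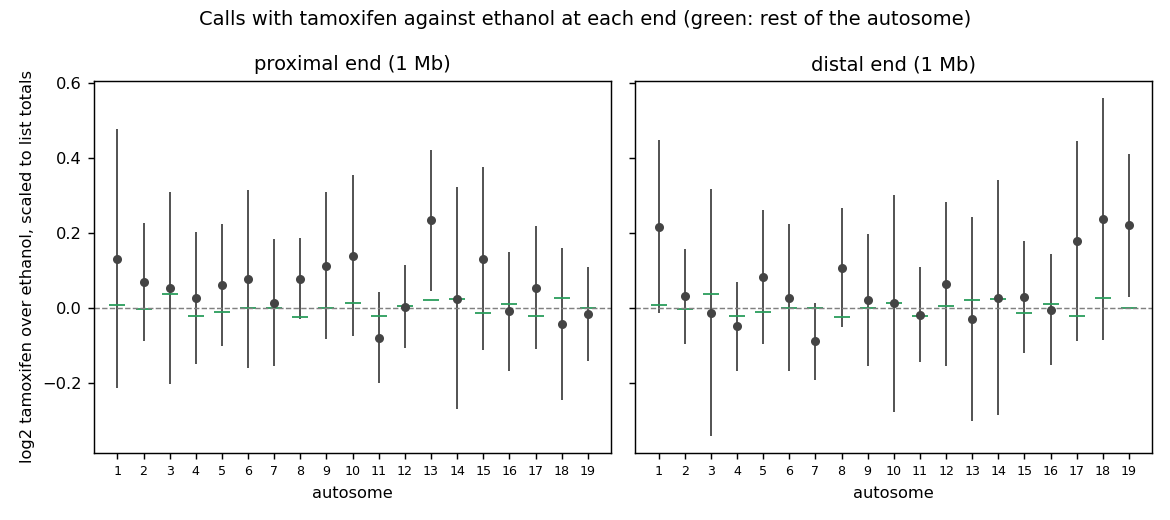
Log2 ratio of tamoxifen over ethanol calls, scaled to the list totals, for the proximal (left) and distal (right) 1 Mb of each autosome, with exact 95% counting intervals and the value of the rest of the autosome in green. The points run from -0.089 on distal chromosome 7 to 0.24 on distal chromosome 18, and 2 of the 38 intervals leave out 0.

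In the rest of the autosomes the ratio was lower where calls were denser, and the ends were therefore also compared by density. All 100 kb windows were ranked by the sum of their scaled calls and cut into 10 classes of like size. In the sparsest class the rest had a log2 ratio of 0.15 (0.12 to 0.18) and in the densest -0.067 (-0.074 to -0.060). The 12 proximal steps in the sparsest class had 74 ethanol and 115 tamoxifen calls, a ratio of 0.50 (0.070 to 0.95), and the 6 distal steps had 57 and 58, a ratio of -0.11 (-0.66 to 0.45). In the densest class the 19 proximal steps stood at -0.020 (-0.090 to 0.050) and the 21 distal steps at -0.076 (-0.15 to -0.0027). Over the 10 classes, numbered from the sparsest, the proximal ratio was above that of the rest in all but class 2. The distal ratio was below the rest in classes 1, 2, 3 and 10 and above it in the others. In every class the intervals of both ends took in the value of the rest. Values are given here only for the densest and sparsest classes, and the sparsest rests on few calls. The number of reads behind each list is unknown, and its part in these ratios was not tested.

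The share of 100 kb steps that differed by more than 1.5-fold between the libraries was close to the background at the ends. Of the 12078 autosomal windows whose scaled count reached the median, 0.149% passed this limit upward with tamoxifen and 0.0497% downward. Of the 193 such steps at the ends, 1 was higher and 0 were lower. With windows of 50 kb, 3 of 383 at the ends were higher and 0 lower, against 0.83% and 0.454% of all. With every 100 kb window of at least 20 calls, 13 of 367 were higher and 5 lower, against 3.45% and 0.891% of all, shares near the background. That step lay on chromosome 19, 200 to 300 kb from the distal end (61041911 to 61141911), and had 37 ethanol and 67 tamoxifen calls, a log2 ratio of 0.72 (0.12 to 1.34). It was followed by the outermost proximal step of chromosome 13, with 42 and 65 calls and a log2 ratio of 0.50 (-0.084 to 1.09). Next came the step from 3700000 on the same chromosome with 50 and 76 calls (0.47), distal chromosome 1 from 196592121 with 39 and 59 (0.46), and proximal chromosome 9 from 3100000 with 45 and 68 (0.46). Among the same 193 steps the lowest was a distal step of chromosome 15, from 102793651 to 102893651, with 71 and 59 calls and a log2 ratio of -0.40 (-0.92 to 0.12). The other low steps were the outermost proximal step of chromosome 18 with 54 and 49 calls (-0.27), proximal chromosome 19 from 3800000 with 114 and 105 (-0.25), distal chromosome 6 from 148914941 with 51 and 47 (-0.25), and distal chromosome 4 from 155329931 with 124 and 115 (-0.24).

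The 5 steps with the most calls were all proximal. After the outermost step of chromosome 11 came chromosome 12 from 3800000 to 3899999, with 237 ethanol and 234 tamoxifen calls. On chromosome 8 the steps from 3400000, 3600000 and 3500000 held 220 and 237, 197 and 217, and 180 and 215 calls. None of these 4 steps had an ethanol call at the maximum score, in contrast to the 160 in the step on chromosome 11. The 5 steps with the fewest calls were proximal as well. On chromosome 3 the steps from 3700000 and 3400000 held 4 and 6, and 5 and 7 calls, on chromosome 10 the step from 3700000 held 4 and 7, on chromosome 14 the step from 3400000 held 6 in each library, and the outermost step of chromosome 19 held 3 and 10. In the rest of the autosomes 146 of 23762 windows of this size had no call in either list.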

How the data were processed

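The 2 lists of called nucleosomes were used as the authors deposited them, 1 per library. Per the submitters' processing notes, the tool was Bowtie 0.12.9 and the genome mm9. Which program called nucleosomes, with which cutoffs and with what treatment of duplicates, is not given in the sources used here. Each list holds, as deposited by the authors, other values than counts: start and end positions on a 10 bp grid, printed as the files give them, and the authors' score, from 50.1 to 3250, in BED form. The number of reads is unknown, so depth limits every comparison to an unknown degree.

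Groups come from the sample titles. The members, lists, measures and named regions were chosen with earlier results of these data known. Ends, 100 kb steps, ranks and neighbours use call centres. The rest of an autosome runs from 4 Mb to 1 Mb before its highest position, and density is calls over length. Shares have Wilson intervals, counts exact Poisson intervals, splits between libraries exact Clopper-Pearson intervals, and density ratios and pair contrasts intervals from Poisson counts on a log scale. Ratios of tamoxifen over ethanol are scaled to the 2 list totals. Sharing was also measured after 10 displacements of 1000 to 10000 bp.

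Regions are named by rule: the 3 highest and 3 lowest ends of each class by ethanol ratio, and the 5 steps with the most and fewest calls and with the highest and lowest log2 ratio, the latter among steps at or above the median scaled count. Other regions named (chromosomes 3, 4, 8, 9, 10, 11, 12, 13, 17 and 19, gaps and arrays) were picked after their values were seen. An annotation of mm9 was not used here, and genes are given only by order in GRCm38.p6. The alternatives were other score limits, end lengths, references, scalings, windows and distance limits. Procedures were tested on simulated data. Tables were made with pandas 2.3.3 and numpy 2.4.6 under Python 3.11.15, intervals with scipy 1.17.1, and plots with matplotlib 3.10.9.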

Additional observations from a re-analysis of the deposited data

How the results depend on the processing

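The lists hold calls that passed unknown cutoffs at unknown depth, and where a value moved the cause was not tested, apart from the fewer calls or autosomes an alternative uses. Calls in the upper score range are those that reach the list's median score. No paired analysis was possible because neither group has another library. Of 150 alternative values for 28 results, 93 stayed the same within counting error (counts within 1.5-fold), 54 moved further and 3 reversed, that is, changed side although the interval of the reported value had left out no difference. A further 10 of the 54 and 3 of the 93 changed side from a value whose interval took it in, all of them in distal density, in the distal neighbour share between the libraries or in the distal score. Thinning the tamoxifen list cannot change values that use ethanol calls alone, and these are counted among the 93. The ranks of the ends have no alternative.

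The 3 reversals so defined were in density. Without chromosomes 8 and 12 the pooled proximal ratio to the rest was 0.97 with ethanol and 0.99 with tamoxifen. Without chromosomes 3, 9, 11 and 17 the outermost proximal step was 0.76 times the other 9 steps in place of 1.33 times. Those autosomes had been picked for having the most calls in this very step, so the ratio was bound to fall without them. That reversal shows which autosomes carried the excess and is no independent check of it. Leaving out 1 autosome, the proximal ratio lay between 1.01 and 1.08 (ethanol) or 1.04 and 1.11 (tamoxifen), and the distal ratio between 0.89 and 1.05 or 0.92 and 1.06. The proximal ratio with ethanol and tamoxifen was 1.17 and 1.20 for calls in the upper score range, 1.11 and 1.15 for ends of 0.5 Mb, and 1.02 and 1.05 without the outermost 100 kb. It was 1.05 with tamoxifen for ends of 2 Mb and 1.03 with ethanol against the adjoining 1 Mb. The distal ratio was 0.90 and 0.93 for 0.5 Mb, 1.16 and 1.16 for 2 Mb, 1.09 and 1.10 without chromosomes 8 and 12, 0.76 and 0.77 against the adjoining 1 Mb, and 0.96 and 0.98 per occupied 10 kb bin.

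For ethanol calls, the proximal minus rest difference in sharing, 3.78 points, was 5.60 for calls in the upper score range, 6.52 for 0.5 Mb, 2.35 for 2 Mb and 2.04 without the outermost 100 kb, and the distal difference, -1.09 points, was -0.082 for 2 Mb. The proximal difference in the share at or above the median score, 5.50 points, was 8.30 for 0.5 Mb, 3.04 for 2 Mb and 3.18 without the outermost 100 kb. The distal one, -0.38, was 0.92 for 2 Mb and 1.60 without chromosomes 8 and 12. The proximal difference in width, -1.02 bp, was -1.88 for calls in the upper score range, -2.04 for 0.5 Mb and -0.36 without the outermost 100 kb. The proximal difference in neighbour share, 4.93 points, was 8.04 for calls in the upper score range, 6.64 for 0.5 Mb, 2.95 for 2 Mb, 3.68 within 300 bp and 2.33 without the outermost 100 kb. The distal one, 1.30, was 0.15 for calls in the upper score range, 3.35 for 2 Mb and 4.13 without chromosomes 8 and 12. The distal neighbour share, tamoxifen minus ethanol, went from 0.81 to -1.20 points with as many tamoxifen as ethanol calls. Proximal arrays per 1000 calls, 1.99 times the rest, were 1.35 times for at least 3 calls and 1.22 times without the outermost 100 kb. Steps at the ends over the fold limit, 1 higher and 0 lower, were 0 higher at a 2-fold limit, 3 higher at 50 kb, and 13 higher and 5 lower among steps with at least 20 calls, where 3.45% and 0.891% of all windows passed. The alternatives without the outermost 100 kb, without 1 autosome and without chromosomes 3, 4, 9, 11 and 17 (or some of these) were chosen after seeing the data.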
